A study of Mus musculus with 6 samples.

Results

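Gene expression in the pressure-loaded left ventricle was compared between 4 weeks and 1 week of transverse aortic constriction (TAC), an operation in which a ligature narrows the aortic arch. The comparison rests on 4 of the 6 arrays of the series, 2 of 4 W TAC and 2 of 1 W TAC, each from a different male wild-type C57BL/6 mouse whose age was not stated. The remaining 2 arrays came from sham-operated mice of the same strain and sex (Sham). They are no part of the contrast, and their signals are given only to place a level. In the linear model they also entered the estimate of the spread behind each standard error and p-value. How long after the sham operation they were collected is unknown here. Of 23332 rows (transcript clusters) on the Affymetrix Mouse Exon 1.0 ST array, the 14996 rows with exactly 1 gene symbol were taken, and they stand for 14860 genes. Signals are log2 values from robust multi-chip analysis (RMA), so that a difference of 1 is a 2-fold difference, and the log2 ratio is the mean of 4 W TAC minus the mean of 1 W TAC (n = 2 mice each).

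A ventricle that pumps against a narrowed aorta thickens. Its muscle cells enlarge and take up genes of the fetal heart, fibroblasts lay down collagen and other matrix proteins, and macrophages enter or multiply in the tissue. The healthy adult heart gains most of its energy from fatty acid oxidation in mitochondria, and hypertrophied hearts are known to turn down genes of this pathway.

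The labelled tissue was checked against muscle genes. Myl2, the ventricular regulatory myosin light chain, had signals between 12.90 and 13.28 on the 6 arrays, and Tnnt2, cardiac troponin T, between 12.65 and 12.83. The median gene had a signal from 5.85 to 6.04 depending on the array, and array pairs correlated across genes with r between 0.968 and 0.988, where genes are not independent replicates. The pair of 1 W TAC had the highest r, but mice of a group were not always the most alike. The 4 W TAC pair had an r of 0.9851 and the Sham pair 0.9844. Replicate 1 of 4 W TAC had a higher r with replicate 1 of 1 W TAC (0.9865) and with replicate 2 of Sham (0.9878). Between the mice of a pair, the difference had an SD over genes of 0.354 for 4 W TAC and 0.307 for 1 W TAC. The number of arrays limits the precision, and an exact permutation test of 2 against 2 arrays cannot give a two-sided p below 0.333.

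Between the times, the clearest differences were lower signals at 4 W TAC for collagens and matrix glycoproteins, macrophage genes and genes of mitosis, and, by smaller steps, higher signals for genes of mitochondrial fuel oxidation. Sprr1a, 2210407C18Rik, H19 and Tnc led the lower side, and Tfrc, Angptl7, Inmt and Myl7 the higher side, among genes of at least median signal. No row passed an adjusted p of 0.05 in the limma fit over all rows (percent of rows called 0), where the smallest adjusted p was 0.0661 for a row with no gene symbol and 0.489 for a gene. At an unadjusted p of 0.05 the same fit counted 1521 rows, among them 495 genes lower (3.33% of genes) and 366 genes higher (2.46%) at 4 W TAC. A share of 0.05 of genes, both directions together, is expected at this limit where no gene differs. The counts are little above it. The test named in the methods, run row by row with Benjamini-Hochberg adjustment, called 0 rows. When only the rows with 1 symbol were fitted and adjusted, 2 genes, Sprr1a and Tnc, were lower with an adjusted p of 0.0358 each (0.0133% of these rows), and 0 were higher. All statements below that a signal was lower or higher are therefore differences of measured means, and single genes other than these 2 stayed above an adjusted p of 0.05 in both fits.

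Over the 14860 genes the median log2 ratio was 0.02 and its SD 0.306, with 6975 genes below 0 and 7813 above 0. The lower side reached further. The 1st percentile of the ratio was -1.0 and the 99th percentile 0.7, and the extremes were -4.29 and 1.91. The arrays of a gene are called apart here when both 4 W TAC signals lie on the same side of both 1 W TAC signals. They were apart with 4 W TAC lower for 2465 genes (16.6%) and with 4 W TAC higher for 3024 genes (20.3%). Where no gene differs, 2 against 2 arrays are expected to be apart for a share of 0.333, both directions together, and the values seen are near that. The 16.6% and 20.3% are the background of every count of arrays apart given for a list below. At least a 1.5-fold difference with arrays apart was seen for 507 lower genes (3.41%) and 295 higher genes (1.99%), and at least a 2-fold difference for 145 lower genes (0.976%) and 33 higher genes (0.222%). Without replicate 1 of 1 W TAC the 507 genes became 957, and the 295 became 847 without replicate 1 of 4 W TAC and 461 without replicate 1 of 1 W TAC. A single array per side is apart from the other side more easily than a pair.

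**Figure D1:**
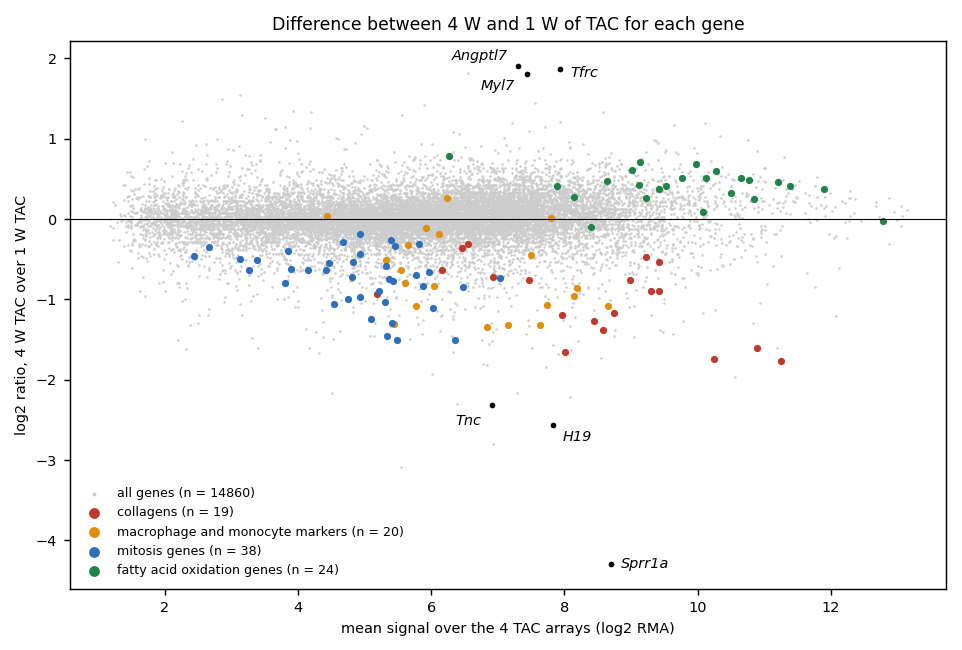
Log2 ratio of 4 W TAC over 1 W TAC (y axis) against the mean signal over the 4 TAC arrays (x axis, log2 RMA), with 1 point per gene. Collagens (19 genes), macrophage and monocyte markers (20) and mitosis genes (38) lie mostly below 0 and fatty acid oxidation genes (24) mostly above 0, and 6 genes of the text are named.

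Sprr1a had the lowest ratio of all genes. It encodes a small proline-rich protein of the cornified envelope of skin, which stressed cardiomyocytes of the mouse also express. Its signal was 6.54 and 6.57 in the 4 W TAC mice, against 10.17 and 11.52 in the 1 W TAC mice, a log2 ratio of -4.29 (SE 0.43) or 19.6-fold lower. The Sham signals were 4.96 and 5.15, so both 4 W TAC mice still lay above both Sham mice. Tnc, tenascin C, a matrix glycoprotein of developing and injured tissue, had 5.64 and 5.86 at 4 W TAC, against 7.86 and 8.28 at 1 W TAC (log2 ratio -2.32, SE 0.21). Its Sham signals were 4.75 and 4.87, again below both 4 W TAC mice. These are the 2 genes called when only rows with 1 symbol were fitted.

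H19, an imprinted long non-coding RNA of the fetal heart that is mostly silent in the adult, behaved otherwise relative to Sham. Its signals were 6.53 and 6.56 at 4 W TAC, against 8.74 and 9.47 at 1 W TAC (log2 ratio -2.56, SE 0.29, adjusted p = 0.531 in limma). Sham mice had 6.62 and 6.20, so that the 4 W TAC signals lay inside the Sham range while the 1 W TAC signals stood more than 2 log2 units above it. Star, which brings cholesterol into mitochondria for steroid synthesis, had 4.93 and 5.54 at 4 W TAC, against 7.04 and 8.03 at 1 W TAC, with 4.52 and 5.15 in Sham mice. Itm2a, a membrane protein of cartilage and T cells, had 6.55 and 7.06 at 4 W TAC, against 8.30 and 8.98 at 1 W TAC. H1f5, a linker histone of dividing cells, had 5.88 and 6.55, against 7.96 and 8.79. The row named 2210407C18Rik had 6.18 and 4.89 at 4 W TAC, against 8.65 and 8.01 at 1 W TAC.

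Below the median signal, and so outside the rule for named genes, stood 2 more genes with a ratio under -2, named here after their values were seen. C1qtnf3, a secreted relative of complement C1q and adiponectin, had 3.79 and 4.22 at 4 W TAC, against 6.34 and 7.85 at 1 W TAC, and its Sham signals of 3.73 and 3.48 were close to the 4 W TAC signals. Ptn, pleiotrophin, a heparin-binding growth factor of developing tissue, had 3.25 and 3.59 at 4 W TAC, against 5.25 and 5.93 at 1 W TAC. Both were at least 4-fold lower at 4 W TAC by their means.

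**Figure D2:**
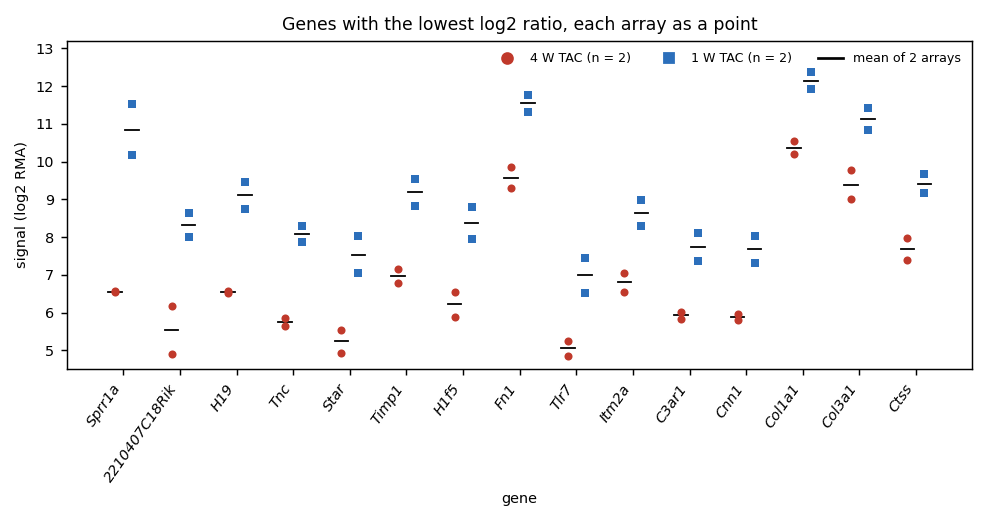
Signal (y axis, log2 RMA) of the 15 genes with the most negative log2 ratio among genes of at least median signal whose arrays were apart (x axis). Points are single mice (red circles 4 W TAC, blue squares 1 W TAC, n = 2 each) and bars their means. Sprr1a shows the widest gap, with both 4 W TAC mice near 6.5 and the 1 W TAC mice at 10.17 and 11.52.

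Collagens were lower at 4 W TAC almost throughout. The list named fibrillar and fibril-associated collagens also held other chains, such as those of collagens IV, VI, VIII and XVIII. Of its 19 collagen genes, all measured, 18 had arrays apart with 4 W TAC lower and 0 with 4 W TAC higher. Among all genes 16.6% were lower. The median log2 ratio of the 19 genes was -0.90. The major fibrillar collagens of scar led. Col1a1 had 10.19 and 10.55 at 4 W TAC, against 11.91 and 12.36 at 1 W TAC (log2 ratio -1.77, SE 0.25), and Col3a1 had 9.0 and 9.77, against 10.83 and 11.41. Col1a2, the partner chain of collagen type I, had 9.90 and 10.29 at 4 W TAC, against 11.43 and 11.97 at 1 W TAC. The chains of collagen VI, a network of microfibrils around cells, moved with little spread: Col6a3 had 7.76 and 7.86 at 4 W TAC, against 9.08 and 9.07 at 1 W TAC. Basement membrane and other chains had smaller differences, with log2 ratios of -0.54 for Col4a1, -0.36 for Col18a1 and -0.31 for Col5a3.

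The collagens had not returned to Sham levels. In 17 of 19 genes both 4 W TAC signals exceeded both Sham signals (17.3% of all genes did so), and in 16 they lay between Sham and 1 W TAC with all 3 groups apart (3.98% of all genes). For Col1a1 the Sham signals were 8.64 and 8.97. Over the 19 genes the median log2 ratio to Sham was 0.72 for 4 W TAC and 1.84 for 1 W TAC. The median ratio of 4 W TAC to 1 W TAC stayed between -1.11 and -0.77 when 1 of the 4 TAC arrays was left out.

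Matricellular proteins, matrix proteins that signal to cells more than they bear load, were mostly lower at 4 W TAC. Of 18 measured genes 13 were apart with 4 W TAC lower (16.6% of all genes) and 2 with 4 W TAC higher (20.3% of all genes), and the median log2 ratio was -0.53. Beside Tnc, the lower ones included Fn1, fibronectin, with 9.29 and 9.86 at 4 W TAC, against 11.32 and 11.77 at 1 W TAC. Postn, periostin, a marker of activated cardiac fibroblasts, had 9.96 and 10.82, against 11.67 and 12.31. Thbs1, a thrombospondin that can activate TGF-beta, had 8.48 and 9.37, against 10.04 and 10.66. Ccn1 and Ccn2, secreted growth regulators induced by stretch and TGF-beta, had log2 ratios of -0.56 and -0.81, and for each the 4 W TAC mice lay below both 1 W TAC mice.

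Some members that differed less or went the other way are named after their values were seen. Thbs4, a thrombospondin of the loaded heart, was lower with arrays apart, but by a small step. It had 10.06 and 10.47 at 4 W TAC, against 10.52 and 10.64 at 1 W TAC, with 7.16 and 6.79 in Sham mice. Most of its distance from Sham was thus still present at 4 W TAC. Cilp, a cartilage protein also made by cardiac fibroblasts, overlapped between the times, with 8.79 and 10.18 at 4 W TAC, against 9.39 and 10.19 at 1 W TAC, and had 6.27 and 5.71 in Sham mice. Comp, cartilage oligomeric matrix protein, was higher at 4 W TAC with 7.48 and 8.68, against 7.39 and 7.30 at 1 W TAC, and had 6.39 and 6.06 in Sham mice. The 2 mice of 4 W TAC differed by more than 1 log2 unit in both Cilp and Comp.

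Elastic fibre genes had a median log2 ratio of -0.81, with 6 of 12 lower and 1 higher with arrays apart. Eln, elastin itself, had 7.0 and 7.10 at 4 W TAC, against 8.16 and 9.07 at 1 W TAC, and Mfap2, a microfibril protein, had 6.45 and 6.41, against 7.39 and 7.74. Enzymes of collagen crosslinking and processing had a median of -0.53, with 5 of 11 lower. Among them Loxl1, a lysyl oxidase of elastic fibres, had 8.38 and 8.89 at 4 W TAC, against 9.21 and 9.82 at 1 W TAC, and P4ha3, a prolyl hydroxylase subunit, 4.37 and 4.66, against 5.33 and 6.27. Proteoglycans and hyaluronan genes had a median of -0.35, with 5 of 13 lower and 2 higher (16.6% and 20.3% of all genes). Lum, lumican, which spaces collagen fibrils, had 9.43 and 9.45 at 4 W TAC, against 10.17 and 10.16 at 1 W TAC, while Dcn, decorin, of the same family, had a log2 ratio of 0.04 with overlapping arrays. These medians depended on single arrays. That of the crosslinking enzymes was -0.23 without replicate 1 of 4 W TAC, -0.28 without replicate 2 of 1 W TAC and -0.82 without replicate 2 of 4 W TAC. That of the elastic fibre genes was -0.45 without replicate 1 of 4 W TAC and -0.48 without replicate 2 of 1 W TAC, and that of the proteoglycans -0.14 and -0.19.

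Matrix proteases and their inhibitors held genes of opposite direction. Timp1, an inhibitor of matrix metalloproteinases induced in inflamed tissue, had 6.79 and 7.15 at 4 W TAC, against 8.82 and 9.55 at 1 W TAC (log2 ratio -2.22, SE 0.28), with 5.58 and 5.63 in Sham mice. Timp4, the inhibitor typical of the heart, went the other way with 8.17 and 8.07 at 4 W TAC, against 7.37 and 7.09 at 1 W TAC (log2 ratio 0.89, SE 0.18), and had 8.65 and 8.71 in Sham mice. In both genes the 3 groups did not overlap and the 4 W TAC mice lay between the other groups. Mmp14, a membrane-bound protease that cuts collagen and activates other metalloproteinases, had 7.03 and 7.10 at 4 W TAC, against 8.50 and 8.99 at 1 W TAC. Of the 18 measured genes of this list 9 were lower and 3 higher with arrays apart. Their median of -0.28 was -0.12 without replicate 1 of 4 W TAC.

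Genes of the TGF-beta family, the main fibrogenic growth factors, had a median log2 ratio of -0.20. Of 17 genes 7 were lower and 3 higher, beside 16.6% and 20.3% of all genes. Without a single TAC array the median ran from -0.41 (without replicate 2 of 4 W TAC) to -0.11 (without replicate 2 of 1 W TAC). The level of a list on an array is the median over its genes of the signal minus the mean of that gene over the 6 arrays. For this list it overlapped between the times, with 0.01 and 0.23 at 4 W TAC, against 0.15 and 0.44 at 1 W TAC. The ligand Tgfb3 had 7.58 and 8.06 at 4 W TAC, against 8.47 and 9.02 at 1 W TAC. Fst, the activin inhibitor follistatin, had 5.43 and 5.41, against 6.10 and 6.11. Bmp4, a ligand of the bone morphogenetic branch, was higher at 4 W TAC with 5.93 and 6.36, against 5.26 and 5.50.

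Markers of fibroblasts and myofibroblasts were also mostly lower. The list shares Mfap5, Fbln1 and Ccn4 with the matrix lists, so that these genes count in both. Of 17 measured markers 12 were lower and 1 higher with arrays apart, and their median log2 ratio was -0.48. Cnn1, calponin of smooth muscle and myofibroblasts, had 5.97 and 5.80 at 4 W TAC, against 7.32 and 8.04 at 1 W TAC, and 6.34 and 6.00 in Sham mice. Sfrp1, a secreted Wnt inhibitor, had 7.41 and 7.49, against 8.57 and 9.36, and Thy1, a surface marker of fibroblasts, 6.55 and 6.08, against 7.18 and 7.35. Pdgfra, a receptor that resting fibroblasts carry as well, had a log2 ratio of 0.07 and Ddr2, a collagen receptor, -0.07. In bulk tissue, fewer cells of a type and less RNA per cell cannot be told apart.

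**Figure D3:**
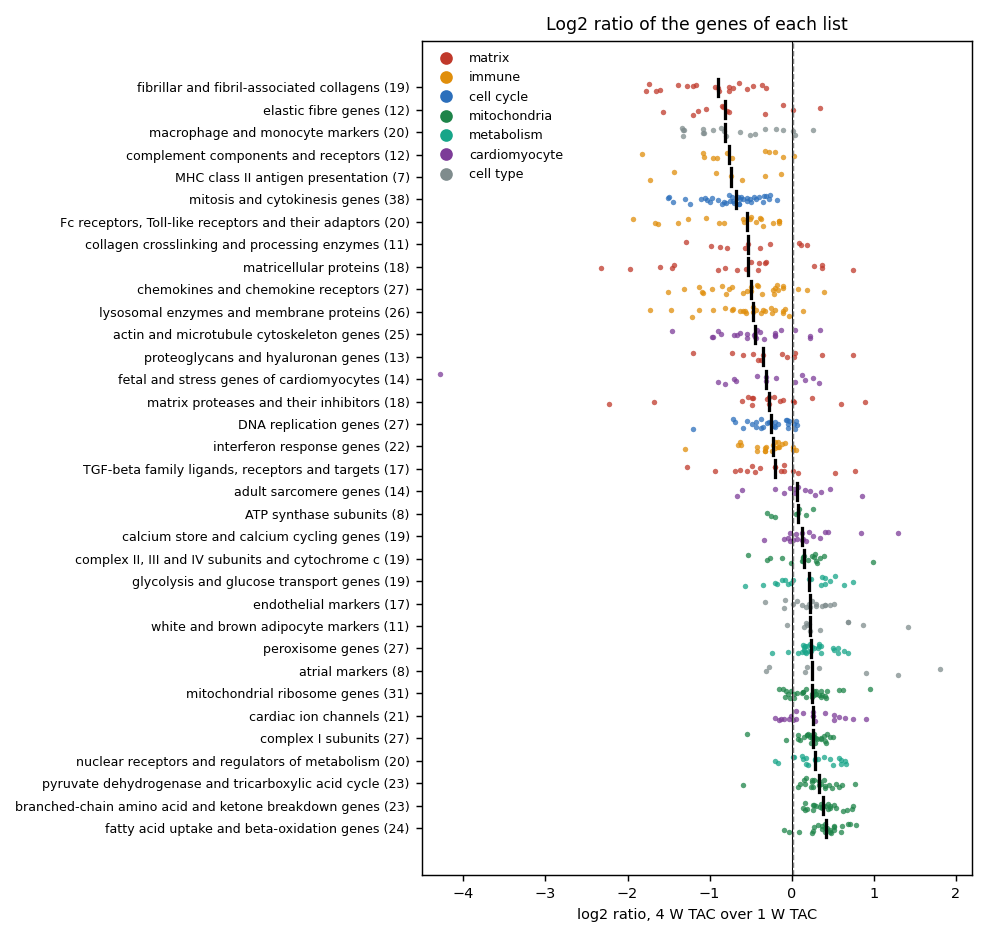
Log2 ratio of 4 W TAC over 1 W TAC (x axis) for each measured gene of the matrix, immune, cell cycle, muscle, mitochondrial and metabolic lists and of 4 cell type lists (y axis, number of measured genes in brackets), ordered by the median, which is drawn as a black bar. The dashed line is the median of all genes (0.02). Colours give the group of lists, and medians run from -0.90 for the collagens to 0.42 for fatty acid uptake and beta-oxidation genes.

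Macrophage and monocyte markers were the cell type list with the lowest median, -0.81. Of 20 measured markers 16 were lower and 0 higher at 4 W TAC with arrays apart. Cd68, a lysosomal membrane protein of macrophages, had 7.10 and 6.85 at 4 W TAC, against 8.08 and 8.50 at 1 W TAC (log2 ratio -1.32, SE 0.23), and Lgals3, galectin-3, had 6.10 and 6.23, against 7.19 and 7.82. The 3 genes of complement C1q, which resident macrophages make, differed by about 1 log2 unit each. C1qc had 7.23 and 7.19 at 4 W TAC, against 8.12 and 8.43 at 1 W TAC, and 6.58 and 6.67 in Sham mice. Cx3cr1, the fractalkine receptor, had 5.14 and 5.33, against 6.18 and 6.45, and its Sham signals of 5.70 and 5.28 overlapped those of 4 W TAC. Without replicate 2 of 1 W TAC the median of the list was -0.57.

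The other immune lists ran the same way, in part through shared members. The 3 C1q genes are also in the complement list, Ccr2 and Cx3cr1 in the chemokine list, Cd14 and Fcgr1 in the list of Fc and Toll-like receptors, and Ctss is in both the MHC class II and the lysosomal list. Complement components and receptors had a median of -0.76, with 9 of 12 lower and 0 higher, and C3ar1, the receptor of the complement fragment C3a, had 5.83 and 6.02 at 4 W TAC, against 7.36 and 8.12 at 1 W TAC. Among chemokines and their receptors 18 of 27 were lower and 1 higher, with a median of -0.50. Ccl8, which attracts monocytes, had 3.49 and 3.43 at 4 W TAC, against 4.16 and 4.93 at 1 W TAC, and Ccl12, a relative of it, 4.14 and 4.06, against 4.74 and 5.0. Cxcl16, a membrane-bound chemokine and scavenger receptor, had 7.13 and 6.91, against 7.82 and 8.48.

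Fc receptors, Toll-like receptors and their adaptors were lower in 14 of 20 genes and higher in 0, with a median of -0.54. Tlr7, a sensor of single-stranded RNA in endosomes, had 5.25 and 4.86 at 4 W TAC, against 6.52 and 7.45 at 1 W TAC, and 5.45 and 5.23 in Sham mice. Fcer1g, the signalling chain shared by Fc receptors, had 8.53 and 7.63, against 9.14 and 9.77. Of the 7 measured genes of MHC class II antigen presentation 5 were lower, with a median of -0.74. Cd74, the invariant chain, had 8.94 and 9.14 at 4 W TAC, against 9.66 and 9.90 at 1 W TAC, and Ifi30, a lysosomal thiol reductase of antigen processing, 6.64 and 6.79, against 7.87 and 8.42.

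Lysosomal enzymes and membrane proteins were lower in 20 of 26 genes and higher in 1, with a median of -0.47. Ctss, the cysteine protease cathepsin S of antigen-presenting cells, had 7.4 and 7.97 at 4 W TAC, against 9.16 and 9.67 at 1 W TAC. Laptm5, a lysosomal membrane protein of blood cells, had 8.32 in both 4 W TAC mice, against 9.62 and 9.95 at 1 W TAC (log2 ratio -1.47, SE 0.18). Lgmn, an asparaginyl protease, had 9.87 and 9.54, against 10.68 and 10.98, and its Sham signals of 9.86 and 9.64 lay inside the 4 W TAC range. Interferon response genes differed less, with 9 of 22 lower, 0 higher and a median of -0.23. The level of this list overlapped between the times, with -0.09 and 0.08 at 4 W TAC, against 0.01 and 0.42 at 1 W TAC. Irf7, which switches on interferon genes, had 6.19 and 6.30 at 4 W TAC, against 7.08 and 8.01 at 1 W TAC. Without replicate 2 of 1 W TAC the medians were -0.47 for complement, -0.28 for chemokines, -0.31 for Fc and Toll-like receptors and -0.07 for interferon response genes, and without replicate 1 of 4 W TAC the lysosomal median was -0.31.

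Among markers of other blood cells, those of lymphocytes had a median of -0.22, with 6 of 13 lower (16.6% of all genes) and 1 higher. Ccl5, a chemokine of T cells that is also in the chemokine list, had 5.14 and 4.93 at 4 W TAC, against 5.15 and 6.52 at 1 W TAC, and the B cell marker Cd79a had 5.0 and 4.81 at 4 W TAC, against 6.09 and 5.16 at 1 W TAC. Without replicate 2 of 4 W TAC this median was -0.11, and it was -0.13 without replicate 2 of 1 W TAC. Neutrophil markers had a median of -0.01, with 2 of 12 lower and 3 higher, near the 16.6% and 20.3% of all genes. Lcn2, lipocalin of neutrophils that other stressed cells also make, had 5.42 and 5.46 at 4 W TAC, against 5.80 and 7.86 at 1 W TAC, and the gap at 1 W TAC was between the 2 mice.

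Endothelial markers leaned the other way, with 9 of 17 higher and 1 lower, beside 20.3% and 16.6% of all genes. Their median was 0.22, which was 0.12 without replicate 2 of 4 W TAC and 0.38 without replicate 1. Kdr, the main receptor of vascular endothelial growth factor, had 9.17 and 9.47 at 4 W TAC, against 8.93 and 8.80 at 1 W TAC, and Flt1, another receptor of it, 8.39 and 8.52, against 8.01 and 7.89. The highest log2 ratio of the list was 0.51. Aqp1, a water channel that is abundant in capillary endothelium, is no member of the list and was named for its high ratio. It had 9.04 and 9.45 at 4 W TAC, against 7.99 and 7.84 at 1 W TAC (log2 ratio 1.33, SE 0.20), with 9.02 and 8.98 in Sham mice. Smooth muscle and pericyte markers had a median of 0.03, with 5 of 13 lower and 3 higher with arrays apart. The lower ones included Cnn1, Tagln and Des, with log2 ratios of -1.80, -0.60 and -0.61. Abcc9, a subunit of vascular and cardiac potassium channels, had 9.59 and 10.08 at 4 W TAC, against 9.11 and 8.61 at 1 W TAC.

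Genes of mitosis and cytokinesis were lower at 4 W TAC without exception among the 38 measured of 40 listed. In 36 of them the arrays were apart, in 25 by at least 1.5-fold (3.41% of all genes), and the median log2 ratio was -0.68 with a range from -1.51 to -0.18. Top2a, the topoisomerase that untangles chromosomes before division, had 4.26 and 5.19 at 4 W TAC, against 5.61 and 6.86 at 1 W TAC (log2 ratio -1.51, SE 0.49). Tpx2, which builds the spindle around chromosomes, had 4.44 and 4.77, against 5.55 and 6.56. Kif23, a kinesin of the cleavage furrow, had 4.39 and 4.57, against 5.29 and 6.15, and Ect2, which cytokinesis needs, 4.01 and 4.00, against 4.75 and 5.38. Mki67, which encodes the proliferation marker Ki-67, had 4.83 and 4.76, against 5.20 and 6.45, with 4.77 and 4.82 in Sham mice. In each of these genes replicate 2 of 1 W TAC was the highest array, and without it the median of the list was -0.41. All of these genes had 4 W TAC signals below the median gene signal of 5.97, and whether they were detected above background was not tested. At 4 W TAC 15 of the 38 genes lay above both Sham mice, as did 17.3% of all genes.

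Many mitosis genes share a short promoter element, the cell cycle genes homology region (CHR), to which the DREAM and MuvB complexes bind. Its core TTTGAA was looked for on both strands in windows of 250 bases before to 50 bases after the RefSeq start site (mouse build GRCm38.p6). It was present in 24 of the 33 mitosis genes with a window (72.7%), in 3 of 23 genes of DNA replication (13%) and in 14.6% of 11894 windows of all genes. The CCAAT box, a general element often found near the CHR, was present in 24 of 33 mitosis windows (72.7%), 14 of 23 replication windows (60.9%) and 38.5% of all windows. Of the 24 matches nearest to the start site, 8 began before it and 16 at or after it, and 22 of the 24 began within 50 bases of it on either side. The 24 genes with the core had a median log2 ratio of -0.74 and the 9 without it -0.64, in ranges that overlapped (-1.51 to -0.18 and -0.85 to -0.43). A match is a description of these letters and not a bound site. The 8 that begin before the start site are printed with 30 bases each to show the element in its setting, read 5′ to 3′ on the strand of the gene, with the core in capitals (TTCAAA where the core lies on the other strand):
Top2a, chr11:99024195-99024224: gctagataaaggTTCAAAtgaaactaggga
Prc1, chr7:80294434-80294463: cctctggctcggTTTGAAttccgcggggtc
Mki67, chr7:135716460-135716489: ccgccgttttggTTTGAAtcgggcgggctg
Kif11, chr19:37376351-37376380: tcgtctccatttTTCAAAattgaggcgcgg
Cdk1, chr10:69352910-69352939: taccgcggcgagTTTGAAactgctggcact
Ube2c, chr2:164769888-164769917: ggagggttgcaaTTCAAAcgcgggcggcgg
Kif2c, chr4:117178858-117178887: ccaggctgctctTTCAAAcctgagtaatgc
Cdc20, chr4:118437344-118437373: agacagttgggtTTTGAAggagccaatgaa
These 8 genes stand in order of their log2 ratio, -1.51 for Top2a, -1.30 for Prc1, -1.03 for Mki67, -1.0 for Kif11, -0.77 for Cdk1, -0.73 for Ube2c, -0.54 for Kif2c and -0.26 for Cdc20.

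DNA replication genes were less far apart than mitosis genes. Of 27 measured genes 14 were lower and 0 higher, with a median of -0.25, and the median was -0.11 without replicate 2 of 1 W TAC and -0.40 without replicate 1. Uhrf1, which keeps DNA methylation through replication, had 5.61 and 5.52 at 4 W TAC, against 6.14 and 7.38 at 1 W TAC. Cdc6, a loader of the replicative helicase, had 4.71 and 4.78, against 5.34 and 5.23, and Tk1, thymidine kinase of S phase, 3.79 and 3.21, against 4.12 and 4.29. The helicase subunit Mcm2 had a log2 ratio of 0.04, with overlapping arrays.

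Genes of the stressed cardiomyocyte did not move together. Of 14 measured fetal and stress genes 7 were lower and 2 higher at 4 W TAC, with a median of -0.31 that was -0.15 without replicate 2 of 1 W TAC. The level of this list overlapped between the times, with 0.12 and 0.30 at 4 W TAC, against 0.28 and 0.70 at 1 W TAC. The natriuretic peptide genes, the classic markers of hypertrophy, differed little between the times. Nppa had 12.69 and 12.76 at 4 W TAC, against 12.90 and 13.16 at 1 W TAC, with 10.86 and 11.61 in Sham mice, and Nppb had 10.87 and 11.22, against 11.10 and 11.37, with 9.87 and 10.36 in Sham mice. Acta1, skeletal actin, had 12.24 and 12.60 at 4 W TAC, against 12.08 and 12.25 at 1 W TAC, with 10.49 and 10.98 in Sham mice. These 3 genes, of which Acta1 and Nppb overlapped between the times, thus stayed above both Sham mice at 4 W TAC. Fhl1, a LIM protein of stretch sensing, had 9.38 and 9.92, against 10.24 and 10.46, and Rcan1, an inhibitor and target of calcineurin, 8.84 and 8.31, against 8.96 and 9.55.

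Cytoskeleton genes were lower at 4 W TAC in 15 of 25 and higher in 0, with a median of -0.45, which was -0.23 without replicate 2 of 1 W TAC and -0.70 without replicate 1. Actb, cytoplasmic actin, had 10.76 and 10.83, against 11.14 and 11.32, and Pdlim7, an actin-binding LIM protein, 7.95 and 7.91, against 8.45 and 9.13. Genes of the adult sarcomere had a median of 0.06 over 14 genes, with 2 lower and 4 higher. The lower ones were Des and Pdlim5. Des, the intermediate filament of muscle, had 11.64 and 12 at 4 W TAC, against 12.25 and 12.61 at 1 W TAC, with 11.33 and 11.24 in Sham mice. Pdlim5 had 9.12 and 9.42 at 4 W TAC, against 9.64 and 10.24 at 1 W TAC. Myom2, of the M band, had 10.97 and 11.65 at 4 W TAC, against 10.28 and 10.64 at 1 W TAC, and Tcap, titin cap, 10.68 and 10.41, against 10.17 and 10. Of the 14 genes 8 overlapped between the times.

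Calcium cycling genes and ion channels leaned to higher signals, where 20.3% of all genes were higher and 16.6% lower with arrays apart. In calcium cycling 8 of 19 were higher and 1 lower (median 0.13, and 0.05 without replicate 2 of 4 W TAC), and among ion channels 10 of 21 were higher and 1 lower (median 0.26, and 0.13 without replicate 2 of 4 W TAC or 0.15 without replicate 2 of 1 W TAC). Hrc, a calcium-binding protein of the sarcoplasmic reticulum, had 10.38 and 9.82 at 4 W TAC, against 9.60 and 8.92 at 1 W TAC, and the calcium pump gene Atp2a2 had a log2 ratio of 0.21. Scn4b, a sodium channel beta subunit, had 7.07 and 6.88, against 6.39 and 6.07, with 7.81 and 7.44 in Sham mice. Kcnj11, the pore of the ATP-sensitive potassium channel, had 7.66 and 7.81, against 7.07 and 7.10. In Scn4b the 4 W TAC mice lay below both Sham mice, and 10 of the 21 channels did so (12.9% of all genes).

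Among genes of at least median signal, the highest ratios belonged to a mixed set. Tfrc, the transferrin receptor that brings iron into cells, had 8.58 and 9.16 at 4 W TAC, against 6.82 and 7.19 at 1 W TAC (log2 ratio 1.87, SE 0.33, 3.64-fold higher, adjusted p = 0.531 in limma), with 8.27 and 7.54 in Sham mice. Angptl7, a secreted angiopoietin-like protein, had 7.55 and 8.97, against 6.30 and 6.40, with 6.68 and 5.52 in Sham mice, and its 4 W TAC mice lay above those of both other groups and differed from each other by more than 1 log2 unit. Inmt, a methyltransferase of tryptamine and other amines, had 7.21 and 7.70, against 5.72 and 5.56. Adh1, an alcohol and retinol dehydrogenase, had 7.93 and 8.62, against 7.13 and 6.54, and Fmo2, a flavin monooxygenase, 7.95 and 8.60, against 7.23 and 7.03. Cpxm2, a secreted carboxypeptidase-like protein, had close replicates with 8.49 and 8.57 at 4 W TAC, against 7.26 and 7.39 at 1 W TAC (log2 ratio 1.21, SE 0.16).

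Others of this set included genes known from muscle. Rpl3l, the ribosomal protein that striated muscle uses in place of its widespread relative, had 7.85 and 8.19 at 4 W TAC, against 7.45 and 6.40 at 1 W TAC, with 8.86 and 8.71 in Sham mice. Art3, a member of the ADP-ribosyltransferase family, had 7.66 and 7.96, against 6.70 and 6.53, and Doc2g, of the double C2 family, 10.12 and 10.35, against 9.13 and 9.01. Lrtm1, a leucine-rich membrane protein, had 10.62 and 11.09, against 10.08 and 9.56. Gsn, gelsolin, which severs actin filaments, had 10.48 and 10.93, against 9.73 and 9.29, with 10.39 and 10.31 in Sham mice. Eif2s2 and Ppp4r2, a translation factor subunit and a phosphatase subunit, rested on 1 mouse: replicate 2 of 4 W TAC had 7.70 and 7.59, against at most 6.30 in replicate 1, and their log2 ratios were 0.25 and 0.42 without that mouse.

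**Figure D4:**
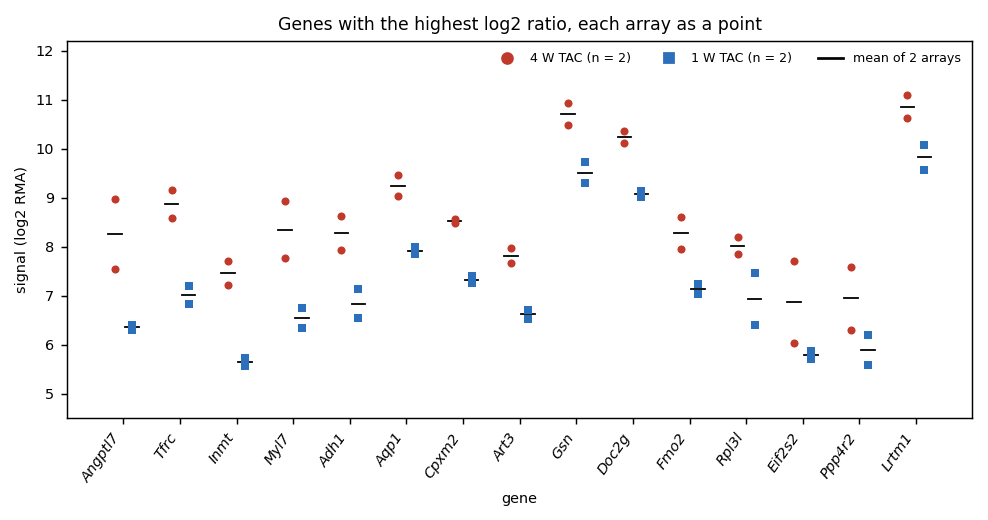
Signal (y axis, log2 RMA) of the 15 genes with the most positive log2 ratio among genes of at least median signal whose arrays were apart (x axis). Points are single mice (red circles 4 W TAC, blue squares 1 W TAC, n = 2 each) and bars their means. Tfrc, Inmt, Aqp1 and Cpxm2 have wide gaps between close pairs, and Angptl7, Eif2s2 and Ppp4r2 have a wide spread at 4 W TAC.

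Myl7, the atrial myosin light chain, was also among the highest ratios. It had 7.77 and 8.92 at 4 W TAC, against 6.74 and 6.33 at 1 W TAC (log2 ratio 1.81, SE 0.42), with 7.59 and 8.06 in Sham mice. Sln, sarcolipin, an atrial inhibitor of the calcium pump, had 6.04 and 6.36, against 5.11 and 4.71, with 5.34 and 5.31 in Sham mice. Of 8 measured atrial markers 5 were higher and 1 lower with arrays apart, the lower one being Nppa, and the level of the list (the median over its genes of the signal minus the mean of that gene over the 6 arrays) was 0.17 and 0.32 at 4 W TAC, against -0.17 and -0.16 at 1 W TAC, with -0.13 and -0.06 in Sham mice. How much atrial tissue each sample held was not tested.

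Genes of fuel oxidation in mitochondria were higher at 4 W TAC, in small steps shared by many genes. Over 152 mitochondrial genes of 7 lists the median log2 ratio was 0.27, with 89 higher and 8 lower with arrays apart, beside 20.3% higher and 16.6% lower among all genes. Fatty acid uptake and beta-oxidation genes had the highest median of the lists, 0.42, with 18 of 24 higher and 0 lower. Acaa2, the thiolase of the last step of beta-oxidation, had 10.56 and 10.59 at 4 W TAC, against 10.15 and 9.80 at 1 W TAC, with 11.40 and 11.11 in Sham mice. Ucp3, an uncoupling protein of muscle mitochondria, had 6.84 and 6.48, against 6.00 and 5.77, with 7.68 and 7.72 in Sham mice. In both genes the 4 W TAC mice lay between 1 W TAC and Sham, as they did in 13 of the 24 genes (3.06% of all genes). Acacb, which makes the malonyl-CoA that restrains fatty acid entry into mitochondria, had 9.40 and 9.58, against 9.01 and 8.55. The 2 genes of the list with a ratio below 0 were Cpt1a and Fabp3, a carnitine transferase and the fatty acid binding protein of heart, at -0.10 and -0.03, a sign that single arrays turned.

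The breakdown of branched-chain amino acids and ketones had a median of 0.38, with 19 of 23 genes higher and 0 lower. Dbt, a core subunit of the branched-chain dehydrogenase, had 8.36 and 8.23 at 4 W TAC, against 7.65 and 7.49 at 1 W TAC (log2 ratio 0.73, SE 0.18), and Bckdha, another subunit of it, had 8.74 and 9.21, against 8.47 and 8.15. In pyruvate oxidation and the tricarboxylic acid cycle 17 of 23 were higher and 1 lower, with a median of 0.33. Idh2, the mitochondrial isocitrate dehydrogenase that uses NADP, had 11.54 and 11.82, against 11.02 and 10.81, and Pdhb, a pyruvate dehydrogenase subunit, had 7.58 and 7.57, against 6.88 and 7.05. The lower gene was Pdk3, an inhibitory kinase of pyruvate dehydrogenase, with a log2 ratio of -0.59. Pdk2, another such kinase, was among the higher genes with 10.76 and 10.82, against 10.34 and 10.27.

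The respiratory chain was more mixed. Complex I subunits had a median of 0.26, with 10 of 27 higher and 1 lower. Ndufs1, the largest of these subunits, had 10.64 and 10.88 at 4 W TAC, against 10.39 and 10.13 at 1 W TAC, and the lower gene, Ndufa1, 7.19 and 7.07, against 7.65 and 7.69. Of 19 genes of complexes II, III and IV and cytochrome c, 8 were higher and 2 lower (median 0.15). Cox8b, the heart and muscle form of a cytochrome oxidase subunit, stood out with 11.05 and 11.44, against 10.37 and 10.15, while Cox6a1, the form of liver and most other tissues, was lower with 8.09 and 8.10, against 8.28 and 8.50. ATP synthase subunits had 3 higher and 3 lower of 8, with a median of 0.07, and mitochondrial ribosome genes 15 higher and 1 lower of 31, with a median of 0.25. Without replicate 1 of 4 W TAC the complex I median was 0.15 and the ATP synthase median -0.01, and without replicate 1 of 1 W TAC that of the mitochondrial ribosome was 0.10.

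Brown and white fat also carries mitochondrial and lipid genes, and its markers differed between mice of a group. Ucp1, the uncoupling protein of brown fat, had 6.35 and 3.96 at 4 W TAC, against 4.40 and 4.18 at 1 W TAC, with 8.21 and 4.19 in Sham mice. Adipoq, adiponectin of fat cells, had 5.29 and 3.71 at 4 W TAC, against 3.74 and 3.91, with 5.27 and 3.53 in Sham mice. High signals of both were thus in replicate 1 of 4 W TAC and replicate 1 of Sham. Of 11 measured fat markers 6 were higher and 0 lower with arrays apart, and the level of the list was 0.21 and -0.07 at 4 W TAC, against -0.20 and -0.32 at 1 W TAC, with 0.22 and -0.04 in Sham mice. Without replicate 1 of 4 W TAC the median log2 ratio of the fat markers was 0.07. Without that array it was higher than with it for fatty acid genes (0.47), amino acid and ketone breakdown (0.54) and pyruvate oxidation and the tricarboxylic acid cycle (0.39). It was lower than with it for complex I (0.15), complexes II to IV (0.11), ATP synthase (-0.01) and the mitochondrial ribosome (0.20). The part of fat tissue in these medians was not tested. Dio2, a thyroid hormone deiodinase of brown fat and of muscle, was higher in both 4 W TAC mice, with 6.23 and 6.97, against 5.32 and 5.04 at 1 W TAC.

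Regulators of metabolism leaned to higher signals as well. Of 20 nuclear receptors and coregulators 12 were higher and 0 lower, with a median of 0.28. Rxrg, a retinoid X receptor of muscle, had 7.79 and 7.82 at 4 W TAC, against 7.39 and 7.06 at 1 W TAC, and Esrrb, an oestrogen-related receptor, 6.86 and 7.22, against 6.46 and 6.42. Tfam, which packages and transcribes mitochondrial DNA, had 6.88 and 7.2, against 6.20 and 6.59. Peroxisome genes had a median of 0.23 (0.13 without replicate 2 of 4 W TAC), with 16 of 27 higher and 0 lower, and Pex19, a carrier of peroxisomal membrane proteins, had 8.65 and 9.08, against 8.19 and 8.17. Glycolysis and glucose transport genes had a median of 0.21, with 10 of 19 higher and 2 lower, and 0.07 without replicate 2 of 1 W TAC. The level of this list overlapped between the times, with -0.08 and 0.18 at 4 W TAC, against -0.04 and -0.13 at 1 W TAC. Slc2a4, the insulin-responsive glucose transporter, had 9.55 and 9.99 at 4 W TAC, against 9.24 and 8.82 at 1 W TAC, whereas Slc16a3, the lactate exporter of glycolytic cells, had 5.48 and 5.76, against 6.18 and 6.20.

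**Figure D5:**
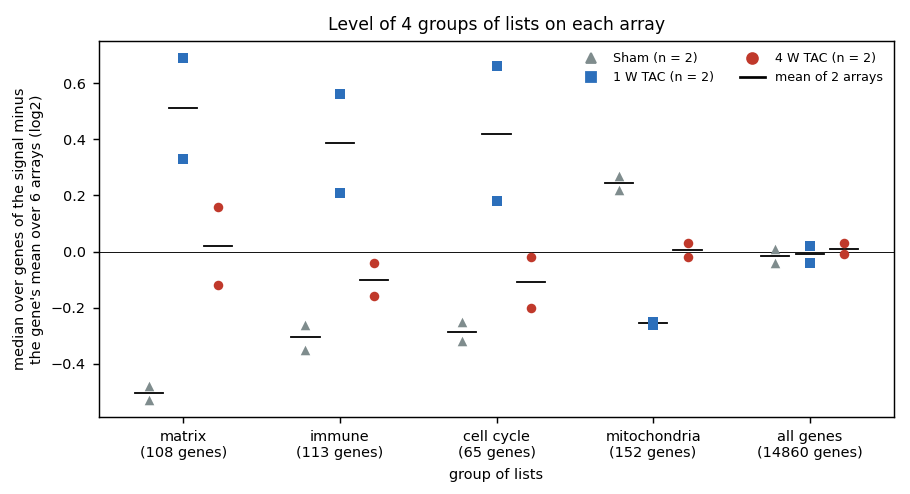
Level of 4 groups of lists and of all genes on each array, given as the median over genes of the signal minus the mean of that gene over the 6 arrays (y axis, log2), for Sham, 1 W TAC and 4 W TAC (points, 2 mice each, with the mean as a bar). For the matrix (108 genes) the 4 W TAC mice stand at -0.12 and 0.16 between 1 W TAC and Sham, and the immune (113 genes), cell cycle (65 genes) and mitochondrial (152 genes) groups show the same order of groups with respect to 4 W TAC in the middle.

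Placed against Sham, the 4 groups of lists differed in how far 4 W TAC stood from it. Of all genes, 17.3% were above both Sham mice at 4 W TAC and 12.9% below both. For 108 matrix genes the level was -0.12 and 0.16 at 4 W TAC, against 0.33 and 0.69 at 1 W TAC, with -0.48 and -0.53 in Sham mice, and in 80 of them both 4 W TAC mice exceeded both Sham mice. For 113 immune genes it was -0.16 and -0.04 at 4 W TAC, against 0.21 and 0.56 at 1 W TAC, with -0.26 and -0.35 in Sham mice, and 43 genes were above Sham. This group joins the complement, chemokine, interferon, MHC class II, Fc and Toll-like receptor and lysosomal lists. Macrophage markers are in it only where these lists share them. For 65 cell cycle genes it was -0.20 and -0.02, against 0.18 and 0.66, with -0.25 and -0.32 in Sham mice, and 25 genes were above Sham. For the 152 mitochondrial genes it was -0.02 and 0.03, against -0.26 and -0.25, with 0.27 and 0.22 in Sham mice, and in 81 genes both 4 W TAC mice lay below both Sham mice. Since each comparison shares arrays with the others, these counts describe positions and are no separate tests.

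Of the 507 genes at least 1.5-fold lower at 4 W TAC with arrays apart, 209 were above both Sham mice at 4 W TAC, 66 were below both and 232 overlapped Sham. Of the 295 genes at least 1.5-fold higher, 71 were above both Sham mice, 42 below both and 182 overlapped. The shares of all genes above (17.3%) and below (12.9%) both Sham mice are the background of these counts. The 66 genes of the lower side and the 42 genes of the higher side that lay below both Sham mice are shares near the 12.9%.

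Smaller groups of genes completed the comparison. Circadian clock genes had a median of 0.34, with 8 of 15 higher and 1 lower, and Dbp, an output factor of the clock, had 8.61 and 8.91 at 4 W TAC, against 8.21 and 7.69 at 1 W TAC. Hlf, of the same family, had 7.6 and 7.90, against 6.93 and 6.82. The hour at which hearts were taken is unknown here. The median of this list was 0.15 without replicate 1 of 1 W TAC and 0.13 without replicate 2 of 4 W TAC. Its level overlapped between the times, with -0.03 and 0.23 at 4 W TAC, against -0.09 and 0.00 at 1 W TAC. Endoplasmic reticulum folding and secretion genes had a median of -0.24, with 9 of 25 lower and 2 higher, and Xbp1, a factor of the unfolded protein response, had 7.86 and 7.94, against 8.17 and 8.49. This median was -0.12 without replicate 1 of 4 W TAC, and the level of the list overlapped (-0.24 and 0.05 at 4 W TAC, against 0.00 and 0.20 at 1 W TAC). Heat shock genes had a median of 0.09, which was 0.04 without replicate 1 of 4 W TAC and 0.16 without replicate 2, and Hsph1, a large chaperone, had 8.63 and 8.45, against 7.76 and 7.41, with 8.87 and 8.44 in Sham mice.

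Immediate early genes had a median of 0.01, with 5 of 23 lower and 4 higher, near the 16.6% and 20.3% of all genes. Myc, a transcription factor of growth, had 6.42 and 6.19 at 4 W TAC, against 6.85 and 7.71 at 1 W TAC. Atf3, a transcription factor of stress, had 6.14 and 6.06, against 6.76 and 7.09, while the phosphatase Dusp1 was higher with 9.54 and 9.98, against 9.22 and 9.12. Among muscle atrophy and FoxO genes, Gadd45a was higher with 7.74 and 7.53, against 7.08 and 6.99, and Cdkn1a, the inhibitor p21, lower with 6.17 and 6.44, against 6.75 and 7.36. Agtr1a, the main angiotensin receptor of the heart, had 9.01 and 8.73 at 4 W TAC, against 8.34 and 8.0 at 1 W TAC, and Edn3, an endothelin, 5.92 and 6.31, against 5.50 and 5.23.

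Regulators of RNA processing differed less. Splicing regulators had a median of 0.09, with 8 of 24 higher and 2 lower, and the median was 0.20 without replicate 1 of 4 W TAC and 0.04 without replicate 2. Rbfox1, a splicing factor of muscle and brain, had 7.13 and 7.09 at 4 W TAC, against 6.63 and 6.21 at 1 W TAC, with 7.91 and 7.52 in Sham mice, so that the 3 groups did not overlap. Rbmxl1, a retrogene relative of an RNA-binding protein, was lower with 6.82 and 6.72, against 7.4 and 7.35. Cleavage and polyadenylation factors had a median of 0.02, with 3 of 19 higher and 3 lower, near the 20.3% and 16.6% of all genes. Their largest ratio was that of the poly(A) polymerase Papolg with 6.17 and 6.59, against 5.65 and 5.92. Of 32 cytosolic ribosomal protein genes only 8 had a row with 1 symbol, and their median was -0.13. Schwann cell and neuron markers and mesothelial markers had medians of -0.01 and 0.03.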

How the data were processed

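RNA of the left ventricle from 6 mice (2 each of 4 W TAC, 1 W TAC and Sham, grouped by the sample titles) was hybridised to 6 Affymetrix Mouse Exon 1.0 ST arrays. The labels name Trizol for extraction and the methods a column kit. The authors normalized the arrays together with RMA in Affymetrix Expression Console and deposited gene-level log2 values with 2 decimals. RMA gives the probe intensities of all arrays 1 distribution, so a change shared by all genes would not show. The gene-level values were not fully alike, with medians from 5.85 to 6.04. The annotation build of the rows was not given in the sources used here, and the detection filter of the methods was not repeated.

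Rows with exactly 1 gene symbol were kept as genes (14860). Of 135 genes with several rows, the row with the highest mean stood for the gene. A linear model with 1 mean per group over the 6 arrays was fitted to all 23332 rows with limma 3.58.1 in R 4.3.3 (3 residual degrees of freedom, prior 2.68), 4 W TAC minus 1 W TAC was tested with empirical Bayes moderation, and p-values were adjusted by Benjamini-Hochberg at 0.05. They measure the spread between these mice, and with arrays only their number limits precision. The fit was tested on simulated data.

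Named were genes with an adjusted p under 0.05, the 15 lowest and 15 highest ratios among genes of at least median signal with arrays apart, the 4 members of each list with the largest moderated statistic, and markers of other cell types. Members outside this rule, given to show where a list did not move or to define a contrast within it, were chosen after their values were seen. Of 1112 places in 50 lists 885 were measured. The genes and lists were chosen with earlier results of these data known. Hba-a1, a marker of red blood cells, had no row with 1 symbol. Promoter sequences were RefSeq, build GRCm38.p6, matched by symbol. Alternatives covered the arrays and rows in the fit, a replicate block, the variance prior, normalization, a signal filter, the t-test of the methods, the rows per gene and leaving out each array. The main fit did not pair arrays by replicate number.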

Additional observations from a re-analysis of the deposited data

How the results depend on the processing

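No row passed an adjusted p of 0.05 in limma under any alternative but 2. When only rows with 1 symbol, or only rows of at least median signal, were fitted, 2 genes were lower at 4 W TAC, and 0 higher. At an unadjusted p of 0.05 the 366 higher genes became 577 with only rows of 1 symbol, and the t-test of the methods with at least 1.5-fold gave 89 lower and 82 higher genes, of which 0 passed Benjamini-Hochberg adjustment. Of the 507 genes at least 1.5-fold lower, 312 had a mean over the 6 arrays at or above the median of all rows (278 had a mean over the 4 TAC arrays at or above the median of all genes, the limit used for named genes), and at least 2-fold left 145 lower and 33 higher genes.

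Replicate numbers are shared by the groups. Correlations of the deviations of same-numbered arrays were 0.145 for 4 W with 1 W TAC, -0.267 for 4 W TAC with Sham and -0.2 for 1 W TAC with Sham. With 2 arrays a group these values cannot decide whether the numbers pair the arrays. With the replicate block 399 genes were lower and 220 higher at an unadjusted p of 0.05, against 495 and 366 without it, and 0 passed adjustment.

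Leaving out 1 array at a time, 181 (without replicate 2 of 1 W TAC) to 632 genes were lower and 128 (without replicate 2 of 1 W TAC) to 498 higher at an unadjusted p of 0.05, where a lone array is assumed to vary like the other groups. At least 1.5-fold with arrays apart gave 397 to 957 lower and 295 to 847 higher genes. List medians ranged from -0.995 to -0.565 for macrophage markers, -0.61 to -0.305 for lysosomal genes, 0.312 to 0.577 for fatty acid genes, 0.225 to 0.39 for pyruvate oxidation and the tricarboxylic acid cycle, and 0.3 to 0.54 for amino acid and ketone breakdown. The sign of the median held in all settings for 41 of 49 lists, the others being ATP synthase, Schwann cell and neuron, polyadenylation, ribosomal protein, immediate early, mesothelial, neutrophil, and smooth muscle genes.

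Of 146 genes compared by name, 138 kept their direction in all settings. The log2 ratio of Dcn was -0.048 after quantile normalization and that of Fabp3 0.005 after centring on the median. Without 1 array the ratio ran from -0.115 to 1.465 for Adipoq, -0.33 to 2.06 for Ucp1, -1.0 to 0.39 for Cilp, -0.24 to 0.05 for Cpt1a, -0.07 to 0.14 for Dcn, -0.12 to 0.07 for Fabp3, -0.165 to 0.245 for Mcm2 and -0.13 to 0.27 for Pdgfra. The cause of these shifts was not tested.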
